A study of Mus musculus with 2 samples.

Results

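Notch receptors, ligands and target genes were followed across the cells of mouse back skin, and between a control mouse and a mouse with induced miR-205. The set holds 9 of the 31053 features counted, chosen by symbol alone: the receptors Notch1, Notch2 and Notch3, the ligands Jag1, Jag2 and Dll1, and the target genes Hes1, Hey1 and Heyl. Each symbol matched exactly 1 feature. Another 51 genes of the pathway served as a wider list.

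Back skin was taken at postnatal day 53 from 1 control mouse and 1 miR-205 inducible mouse, labelled C57BL/6 and matched for gender, and each mouse gave 1 single-cell RNA library on the 10x Genomics platform. In the inducible mouse, Krt14-rtTA, a doxycycline-responsive activator driven by the keratin 14 promoter of basal keratinocytes, switches on a pTRE2-miR-205 transgene, and the animal ate doxycycline chow from postnatal day 49 on, for 4 days. The methods describe the transgenic line as made in FVB animals. Both mice carried a K14-H2BGFP allele, which marks keratinocyte nuclei. The extraction protocol has both mice on doxycycline, whereas the characteristics of the control read untreated. Sorting on surface proteins and GFP brought in epidermal, hair follicle and dermal cells at 3:5:2. Each group being 1 library, induction could not be tested, and every interval below is a 95% interval that covers counting error only. Mature miR-205 is not counted by this assay, so induction itself could not be checked.

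Notch receptors are single-pass membrane proteins that are activated by Jagged or Delta ligands on a neighbouring cell. Ligand binding exposes the receptor to ADAM proteases and then to gamma-secretase, and the freed intracellular domain enters the nucleus, where it joins Rbpj and Mastermind proteins and turns on genes of the Hes and Hey families. In skin, the pathway is best known for promoting the commitment of basal keratinocytes to the spinous programme, and it also has roles in the hair follicle, the melanocyte lineage and the vessel wall.

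Among the miR-205-ligated transcripts that the study captured, its adhesion and cytoskeleton categories name Notch1, Notch2, Jag1, Dll1 and Hes1. The mature microRNA is shown because its seed sets which transcripts can carry a canonical site. RefSeq places mmu-miR-205-5p on the minus strand at chr1:193507503-193507524 (GRCm38.p6), and capitals mark the seed, bases 2 to 8.
mmu-miR-205-5p: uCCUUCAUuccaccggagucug
The 7-base complement of this seed is ATGAAGG. It was looked for, on the transcript strand only, in the longest annotated 3′ UTR of each gene (gencode vM1, NCBIM37), and 1 of the 9 members held it, against 2064 of 19915 genes with a 3′ UTR (10.4%). The match was in Notch2, at base 1023 of a 3′ UTR of 2923 bases. The site lies on the plus strand at chr3:97952390-97952396 (NCBIM37) and is printed in capitals within its flanks.
Notch2 3′ UTR site: tcattgatccagcagATGAAGGtactcttg
The 3′ UTRs of Notch1 (1628 bases), Jag1 (1568 bases), Dll1 (676 bases) and Hes1 (368 bases) did not hold these letters. A shorter, 6-base seed match was found 1 time each in Jag1, Hes1 and Hey1 and 3 times in Notch2. It was found 0 times in Notch1, Notch3, Jag2, Dll1 and Heyl. No share over all genes is given for this shorter match, and other kinds of site were not looked at.

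The members lie on separate loci of the mouse genome (GRCm38.p6, RefSeq gene bounds). Notch1 is at chr2:26457902-26503822, Notch2 at chr3:98013538-98150367 and Notch3 at chr17:32120820-32166896. Jag1 is at chr2:137081451-137116520, Jag2 at chr12:112907803-112929812 and Dll1 at chr17:15367354-15376932. Hes1 is at chr16:30065357-30067796, Hey1 at chr3:8663359-8667038 and Heyl at chr4:123233556-123249870.

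The study's filter kept 3936 of 4545 control barcodes and 3628 of 4264 induced barcodes, with a median of 12198.5 and 11752.5 unique molecular identifiers (UMIs) per cell. The libraries shared 5 kept barcodes. Clustering without any Notch pathway gene gave 24 clusters, 23 of them with at least 50 cells. Marker genes named 18 clusters, and 6 stayed unnamed and are called by number. In the hair follicle stem cell (HF-SC)-like cluster 6 of 7 bulge markers were raised, among them Cd34, Krt15 and Krt24. The cluster named basal-like epidermis below had 3 of 6 basal markers raised (Krt14, Krt5 and Thbs1). Hair germ was a name that no cluster earned. Cluster 7 came nearest, with 5 of 6 hair germ markers raised (Cdh3, Gli1, Lef1, Lgr5 and Sox4), but smooth muscle Tagln was also among its top 10 genes by fold. The inner bulge-like cluster held 169 control and 380 induced cells, and T cell-like cluster 18 held 8 and 61, so the libraries differed in composition.

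Notch1, the main receptor of epidermal differentiation, had UMIs in each of the 23 clusters, with 2776 control and 2914 induced UMIs in all kept cells. The lowest level was in antigen-presenting-like cluster 16, with 6 control and 2 induced UMIs. In the interfollicular epidermis (IFE) basal-like cluster its level was 47.4 counts per 1000000 UMIs (CPM; 43.2 to 51.9) in the control library and 53.2 (47.6 to 59.2) in the induced library. In the HF-SC-like cluster the level was 55.9 (48.3 to 64.3) in control and 71.4 (62.8 to 80.8) in induced. In cluster 7 it was 70.6 (60.2 to 82.3) and 93.3 (82.1 to 106). Clusters are ordered here by the mean of the 2 libraries. The cycling-like cluster was at the top of this order, at 85.4 (75.1 to 96.7) and 106 (91.6 to 122), although the melanocyte-like and Schwann-like clusters were above it in control (101 and 88.8). It was above 13 of the 22 clusters below it with intervals apart in both libraries. Fibroblast-like cells were near the bottom with 20.1 (13.4 to 29.1) and 29.8 (22.3 to 39.1). No 2 neighbours in the order of Notch1 levels were separated in both libraries.

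Notch2 was higher in suprabasal than in basal clusters. The IFE basal-like cluster held 25.0 CPM (22.0 to 28.3) in control and 22.2 (18.7 to 26.2) in induced. The IFE suprabasal-like cluster 11, led by Mt4, Krt1 and Krt10, held 58.4 (50.3 to 67.5) and 51.6 (43.5 to 60.7). The IFE suprabasal-like cluster 6, which shows loricrin and Sbsn and also the follicle opening gene Cst6, held 100.1 (90.3 to 111) and 71.3 (62.6 to 80.8), and lay above 17 of 22 other clusters in both libraries. Cluster 13 was the lowest, with 10.6 (6.19 to 17.0) and 10.5 (5.74 to 17.6).

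Notch3 had the narrowest distribution of the 3 receptors. In keratinocytes it was found in the differentiating and upper follicle clusters. Cluster 6 held 31.8 (26.4 to 38.0) and 37.7 (31.5 to 44.8) CPM, the upper HF-like cluster 27.9 (22.6 to 34.0) and 32.8 (26.8 to 39.7), and cluster 11 21.6 (16.8 to 27.4) and 26.7 (21.0 to 33.4). Each of these 3 clusters was separated from 14 clusters below it in both libraries. The inner bulge-like cluster followed with 22.8 (15.3 to 32.7) and 17.4 (12.9 to 22.9). By contrast, the HF-SC-like cluster held only 3 control and 8 induced Notch3 UMIs, and the IFE basal-like cluster 17 and 7. Notch3 was at 0 in 3 of the 23 clusters, both T cell-like clusters and the melanocyte-like cluster.

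The Schwann-like cluster had the highest mean Notch3 level, 80.8 (38.7 to 149) in control and 53.5 (26.7 to 95.7) in induced, from 10 and 11 UMIs. This cluster was mixed. In 12 of its 65 cells, smooth muscle or pericyte marker UMIs (Acta2, Tagln, Rgs5, Myh11 and Des) outnumbered Schwann marker UMIs, a split made after the values were seen. These 12 cells, 6 per library, carried all 21 Notch3 UMIs, in 10 cells, for a level of 283 CPM (175 to 432). The 35 cells with more Schwann UMIs carried 0 Notch3 UMIs.

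**Figure D1:**
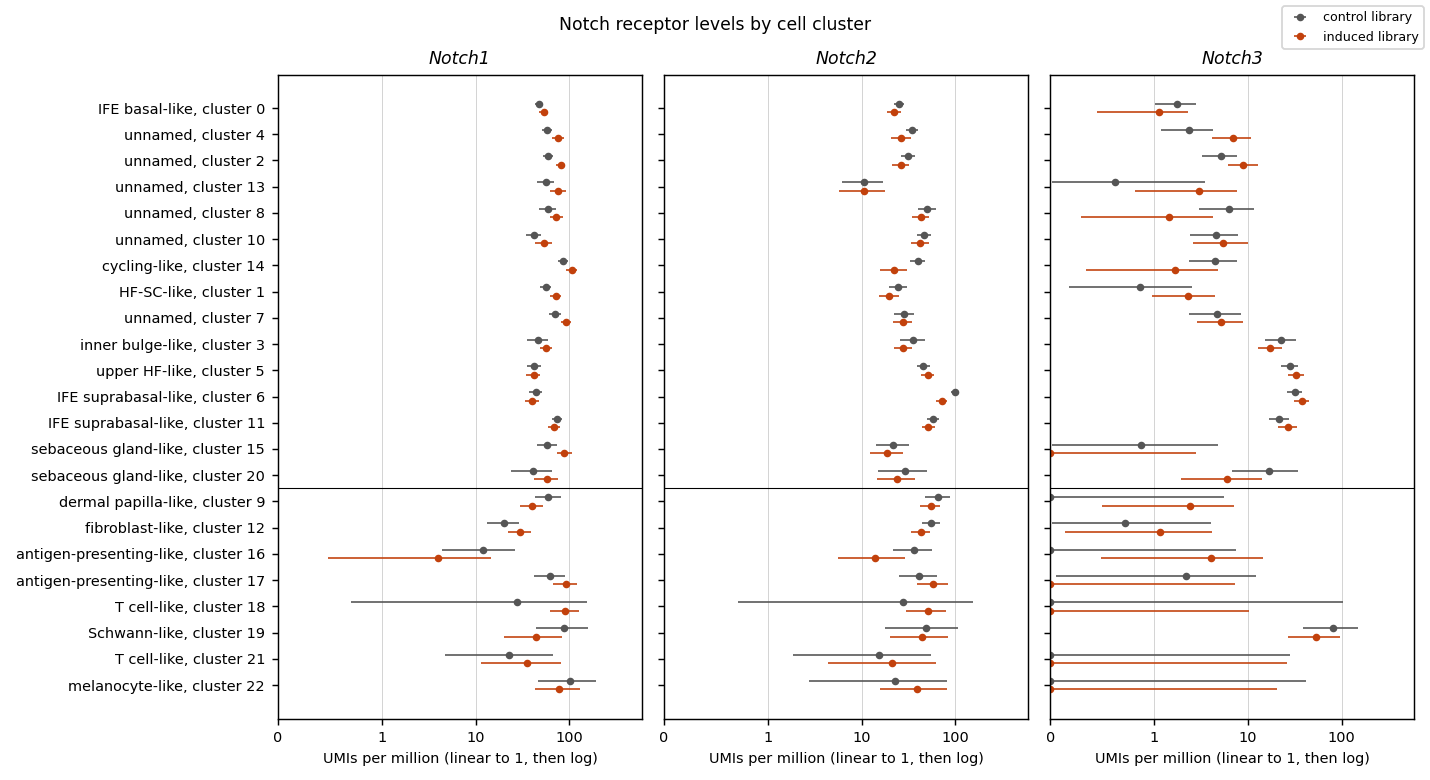
CPM (x axis, linear up to 1 and logarithmic above) of Notch1, Notch2 and Notch3 in the 23 clusters with at least 50 cells (y axis), in the control (grey) and induced (orange) library; bars are exact Poisson 95% intervals, and the line parts epidermal, follicle, cycling, sebaceous and unnamed clusters from the others. Notch1 is broad, Notch2 peaks in suprabasal-like cluster 6, and Notch3 in suprabasal-like, upper HF-like, inner bulge-like and Schwann-like clusters.

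The ligands divided the skin more sharply than Notch1. Jag1, a Jagged ligand, was highest in the HF-SC-like cluster by the mean of the 2 libraries. In the HF-SC-like cluster its level was 355 CPM (335 to 375) in control and 232 (217 to 249) in induced. This cluster was separated from 21 of the 22 others in both libraries; the exception was the melanocyte-like cluster, at 359 (246 to 507) in control and at 0 of 29 cells in induced. Of the 32 Jag1 UMIs in control melanocyte-like cells, 5 cells held 96.9%. Cluster 7 held 193 (175 to 211) and 183 (167 to 200), and the inner bulge-like cluster 199 (176 to 226) and 161 (147 to 176), with intervals that overlapped. In control, unnamed cluster 10 (201 control and 98.4 induced) and sebaceous gland-like cluster 15 (186 and 134) were near these levels. IFE basal-like cells had lower Jag1, 73.8 (68.5 to 79.3) and 66.5 (60.3 to 73.2). Suprabasal-like cluster 6 had 26.3 (21.4 to 32.0) and 27.5 (22.2 to 33.6).

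Jag2, the second Jagged ligand, was highest in cluster 13, with 86.9 CPM (73.1 to 103) in control and 104 (87.7 to 123) in induced. That unnamed cluster had high Krt14, 19324 and 16867 CPM, and was separated from 20 of 22 clusters below it for Jag2. Jag2 was at 30.2 (26.9 to 33.8) and 45.9 (40.8 to 51.5) in IFE basal-like cells and at 37.2 (31.1 to 44.2) and 46.4 (39.5 to 54.1) in HF-SC-like cells. It was scarce in the keratinocyte clusters with most Notch3. Suprabasal-like cluster 6 held 8 control and 9 induced Jag2 UMIs, the upper HF-like cluster 8 and 5, and the inner bulge-like cluster 6 and 13.

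Dll1, a Delta ligand, was high in a dermal and in an epidermal population. Dermal papilla-like cells, the mesenchymal signalling centre at the follicle base, held 280 CPM (241 to 323) in control and 260 (233 to 290) in induced, above all 22 other clusters in both libraries. The IFE basal-like cluster came second with 146 (138 to 154) and 142 (133 to 152), followed by cluster 4, led by Ntrk2, with 81.9 (73.9 to 90.5) and 67.5 (58.2 to 78.0). These first 3 places were each separated from the next in both libraries. Cluster 4 was also among the highest for Jag1, at 180 (168 to 193) and 153 (139 to 169). The 3 clusters with the highest mean Jag1 held few Dll1 UMIs. HF-SC-like cells held 19 control and 16 induced Dll1 UMIs, cluster 7 held 7 and 22, and 0 of 169 control and 0 of 380 induced inner bulge-like cells had a Dll1 UMI. After thinning to 5000 UMIs a cell, 0 of 150 control and 0 of 343 induced cells allow shares of cells with a Dll1 UMI of up to 2.00% and 0.875%, which do not limit how many cells express the gene.

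**Figure D2:**
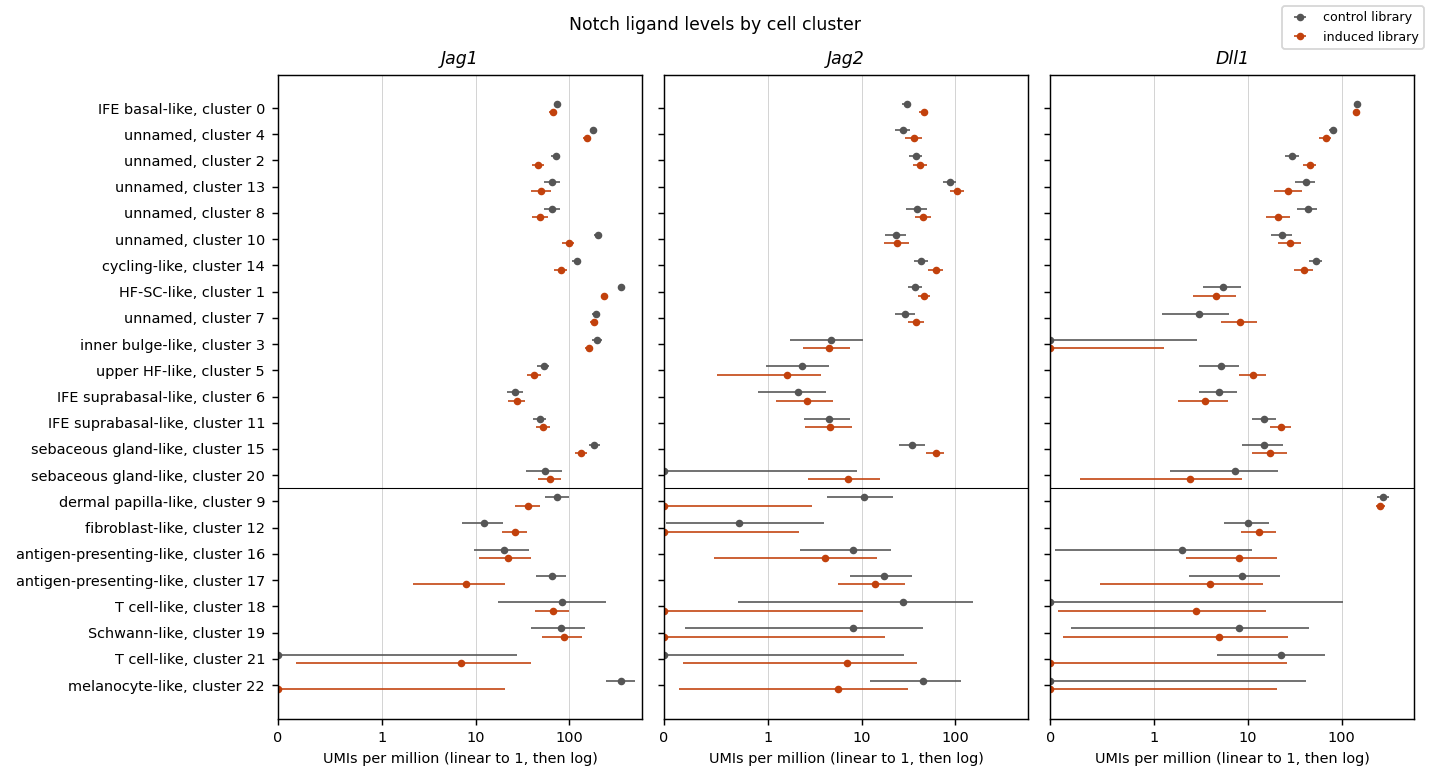
CPM (x axis, linear up to 1 and logarithmic above) of Jag1, Jag2 and Dll1 in the 23 clusters (y axis), in the control (grey) and induced (orange) library; bars are exact Poisson 95% intervals. By the mean of the 2 libraries Jag1 leads in HF-SC-like cells (355 and 232), Jag2 in cluster 13 (86.9 and 104), and Dll1 in dermal papilla-like (280 and 260) and IFE basal-like cells (146 and 142).

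Of the target genes, only Hes1, a transcriptional repressor, was counted in numbers that allow comparison across most clusters, with 1034 control and 1656 induced UMIs in 15.6% of kept cells. By the mean of both libraries the fibroblast-like cluster was highest, though in control the inner bulge-like (69.1) and Schwann-like (56.5) clusters were above it. It held 52.4 CPM (41.1 to 65.9) in control and 124 (108 to 141) in induced. HF-SC-like cells held 41.3 (34.8 to 48.6) and 101 (91.0 to 112), and inner bulge-like cells 69.1 (55.4 to 85.1) and 47.4 (39.8 to 56.0). The IFE basal-like cluster was low, at 6.12 (4.67 to 7.88) and 6.99 (5.08 to 9.38), although Dll1 was high there. Cluster 13, also high in Krt14, held more Hes1 (22.5 and 33.0) and less Dll1 (41.3 and 27.0). Cluster 4 held Hes1 at 8.53 and 13.8, with Dll1 at 81.9 and 67.5. Hes1 UMIs were unevenly spread over cells: in suprabasal-like cluster 6 the 5 cells with most Hes1 held 77.1% of the 70 control UMIs and 80.6% of the 67 induced UMIs. Among 126 T cell-like cells, with a median of 4737.5 UMIs, 0 had a Hes1 UMI; 2.38% is the upper limit on the share with a UMI, not on the share that expresses the gene.

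Hey1 and Heyl, related repressors best known from vessels, were near the limit of detection. Hey1 had 27 control and 69 induced UMIs, in 1.06% of cells, and Heyl had 9 and 9, in 0.172% of cells. Inner bulge-like cells held 5 and 22 of the Hey1 UMIs. Of the 18 Heyl UMIs, 7 were in the Schwann-like cluster, and 5 of these 7 were in the 12 cells with more smooth muscle or pericyte UMIs that also carried Notch3. Heyl was at 0 in 18 of the 23 clusters.

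**Figure D3:**
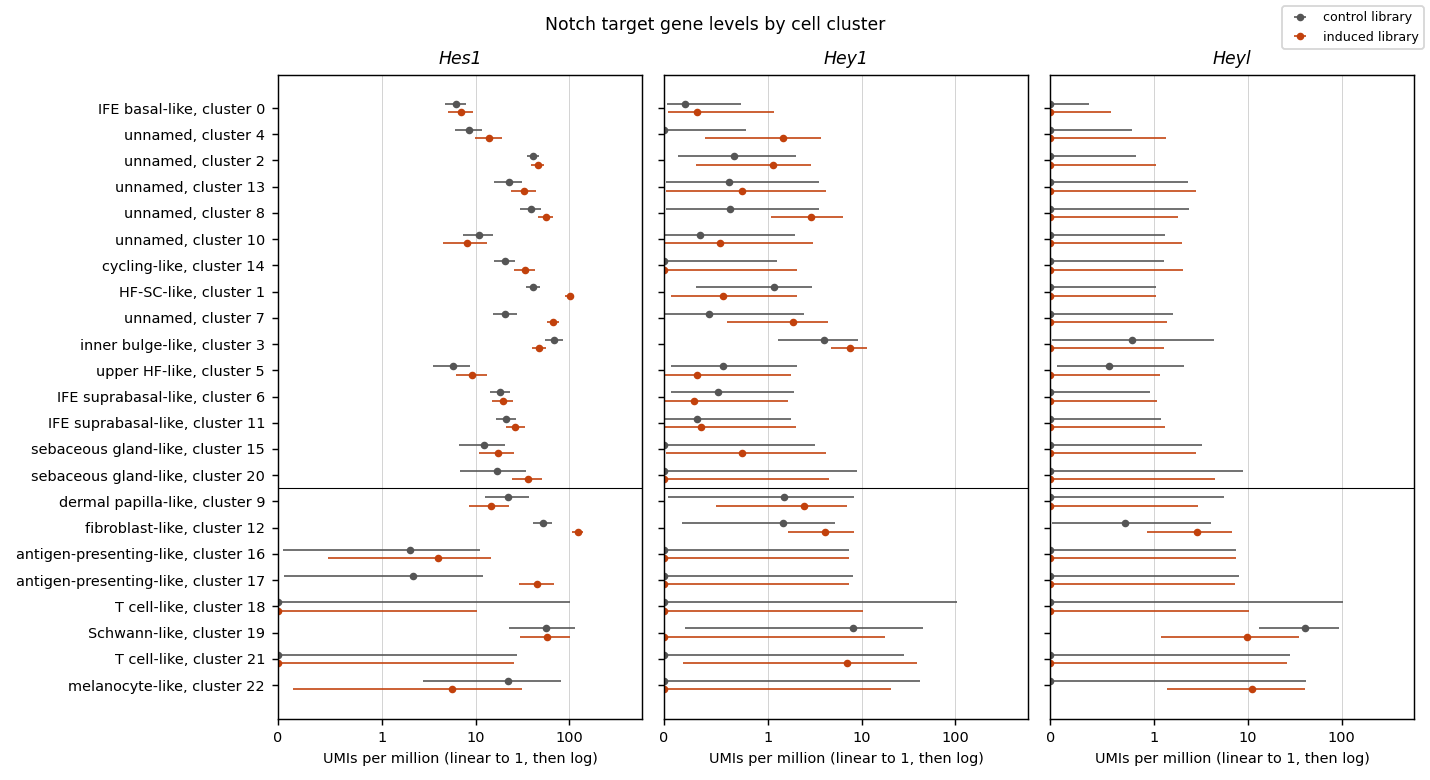
CPM (x axis, linear up to 1 and logarithmic above) of Hes1, Hey1 and Heyl in the 23 clusters (y axis), in the control (grey) and induced (orange) library; bars are exact Poisson 95% intervals. By the mean of the 2 libraries Hes1 is highest in fibroblast-like, HF-SC-like and inner bulge-like cells, while Hey1 and Heyl sit at or near 0 in most clusters.

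To ask how the Notch genes stood 4 days into induction, the libraries were compared within 5 populations: HF-SC-like cells, cluster 7, IFE basal-like cells, and suprabasal-like clusters 6 and 11. A log2 ratio (induced over control) of 0.5 or more in size is called past the fold, and the share of all genes past it in the same direction is given as background. In HF-SC-like cells, 6 members had at least 20 UMIs. Hes1 was higher past the fold and Jag1 lower, that is, 1 of 6 in each direction, against a background of 16.8% of 9584 genes higher and 8.67% lower. Hes1 went from 144 to 356 UMIs (356 control and 355 induced cells), a log2 ratio of 1.29 (1.01 to 1.58). Jag1 went from 1238 to 817 UMIs, a log2 ratio of -0.61 (-0.74 to -0.48). The median of the 6 members was 0.03, and that of all genes tested 0.09.

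The other members of the HF-SC-like cluster stayed within the fold. Notch1 had a log2 ratio of 0.35 (0.08 to 0.63), Notch2 -0.33 (-0.81 to 0.15), Jag2 0.31 (-0.03 to 0.66) and Dll1 -0.25 (-1.31 to 0.78). The Hes1 difference was also seen in the share of cells. After thinning to 5000 UMIs, 14.7% of 333 control cells (11.1 to 19.0) and 28.2% of 341 induced cells (23.4 to 33.2) had a Hes1 UMI, and unthinned the shares were 21.1% and 36.6% at median depths of 9682.5 and 9912 UMIs. For Jag1 the thinned shares were 63.1% (57.6 to 68.3) and 51.0% (45.6 to 56.4), against 7.94% of T cell-like cells unthinned.

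The Hes1 value in HF-SC-like cells depended on how the cells were chosen. When each cell was assigned to the class with most summed marker UMIs, the HF-SC class took 284 control and 547 induced cells, of which 30.9% were of the HF-SC-like cluster, and the Hes1 log2 ratio was -0.12. With markers scaled by their mean level, an alternative added after the data were seen, 58.9% of the class were of that cluster and the ratio was 0.67. Jag1 was lower under both, by log2 ratios of -0.37 and -0.81.

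In cluster 7, 7 members had at least 20 UMIs, and 2 of them were higher past the fold, against 18.1% of all genes. None of the 7 was lower past it, against 11.8%. Hes1 went from 48 to 181 UMIs (201 and 207 cells), a log2 ratio of 1.70 (1.24 to 2.20), and Dll1 from 7 to 22 UMIs, a log2 ratio of 1.38 (0.17 to 2.92). Of these Dll1 UMIs, 5 cells held 85.7% in control and 45.5% in induced. Across 11 alternatives the Dll1 ratio ran from 0.08 to 2.87. Jag1, at 447 and 490 UMIs, had a log2 ratio of -0.07 (-0.26 to 0.11). The difference in Jag1 between this cluster and HF-SC-like cells was not tested. Notch1 had 0.40 (0.11 to 0.69), Notch2 -0.04 (-0.54 to 0.46), Notch3 0.13 (-1.10 to 1.42) and Jag2 0.37 (-0.08 to 0.84). The thinned share of cells with a Hes1 UMI was 9.28% of 194 control cells (5.59 to 14.3) and 22.2% of 203 induced cells (16.7 to 28.5).

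Immediate early and stress genes, which dissociation of tissue can switch on, were counted in the same populations. In cluster 7, 11 of 15 such genes were higher past the fold and 0 lower, with a median log2 ratio of 0.75, against 18.1% and 11.8% of all genes and a median of 0.03. Among those beyond a log2 ratio of 1, Fos had 1.25, Socs3 1.27, Egr1 1.13 and Zfp36 1.01. In HF-SC-like cells 2 of 15 were higher past the fold, Socs3 (438 and 1159 UMIs, log2 ratio 1.39) and Hspa1a (0.75), with a median of 0.23. That is a share of genes no higher than the 16.8% over all genes in this cluster. However, 13 of the 15 were above 0, and the median over all genes was 0.09. The summed level of the 15 genes was 24269 and 28299 CPM in HF-SC-like cells, and 9262 and 15742 in cluster 7.

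Hes1 was also read in cells grouped by their stress UMIs, an alternative chosen after the data were seen. In cluster 7, cells between the 25th and 75th percentile of summed stress UMIs per UMI had 27 control and 16 induced Hes1 UMIs (120 and 84 cells), a log2 ratio of -0.38 (-1.39 to 0.55). Below the 25th percentile the counts were 5 and 13, with a log2 ratio of 1.25 (-0.25 to 3.17). Above the 75th percentile they were 16 and 152, in 27 control and 75 induced cells, with a log2 ratio of 1.40 (0.69 to 2.28). The part of stress genes in the Hes1 difference was not tested. In HF-SC-like cells the ratio in the 3 ranges was 0.57 (-0.50 to 1.60) below, 0.90 (0.48 to 1.36) between and 1.37 (0.96 to 1.83) above these percentiles. The first of these rests on 19 control and 16 induced UMIs, and its interval spans 0. The part of stress genes was not tested in HF-SC-like cells either. Jag1 in HF-SC-like cells had log2 ratios of -0.60, -0.53 and -0.68 in the same 3 ranges, each with an interval below 0.

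The summed markers of fibroblasts, endothelial, antigen-presenting and T cells and melanocytes lay between 0.573 and 39.8 CPM in HF-SC-like cells and between 2.99 and 62.5 in cluster 7, in either library. In cluster 7 the 5 smooth muscle or pericyte markers summed to 43.5 control and 323 induced CPM, with Rgs5 and Des at 0. Of the 444 induced Acta2 UMIs, 441 were in 5 cells. Tagln had 93 UMIs in 18 of 201 control cells and 393 in 38 of 207 induced cells. Of these induced Tagln UMIs, 5 cells held 63.4%. The part of these 5 markers in the Hes1 difference was not tested. Without the 5 cells richest in Hes1 in each library the log2 ratio of Hes1 in cluster 7 was 1.76, and in HF-SC-like cells 1.41. Those cells were picked by Hes1 and not by these 5 markers, so this does not address the markers. In HF-SC-like cells the same 5 markers summed to 0.573 and 3.70 CPM.

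In IFE basal-like cells 7 members had at least 20 UMIs. Jag2 was higher past the fold, with 296 and 289 UMIs from 586 and 363 cells and a log2 ratio of 0.60 (0.36 to 0.84), against a background of 10.5% of genes. Notch3 was lower past it, from 17 to 7 UMIs, with a log2 ratio of -0.58 (-2.15 to 0.70) whose interval spans 0, against 6.52%. Dll1, abundant here, had 1430 and 894 UMIs and a log2 ratio of -0.04 (-0.16 to 0.08), the narrowest interval of any member in any of the 5 populations. Jag1 had -0.15 (-0.33 to 0.03), Notch1 0.17 (-0.04 to 0.37), Notch2 -0.17 (-0.48 to 0.14) and Hes1 0.20 (-0.40 to 0.78). The Hes1 interval in the basal cells spans 0.

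In the suprabasal-like clusters few members were past the fold. In cluster 6, 0 of 6 members tested were past the fold, against 11.2% of genes higher and 7.02% lower. Notch2, the receptor most abundant there relative to other clusters, had 384 and 244 UMIs and a log2 ratio of -0.49 (-0.73 to -0.26), just inside the fold and with an interval below 0. Notch1 had -0.14 (-0.47 to 0.19), Notch3 0.24 (-0.12 to 0.61), Jag1 0.06 (-0.36 to 0.48), Dll1 -0.48 (-1.67 to 0.62) and Hes1 0.10 (-0.40 to 0.60). In cluster 11, 1 of 7 members was higher past the fold, against 12.9% of genes, and 0 lower, against 9.28%. That member was Dll1, with 47 and 63 UMIs and a log2 ratio of 0.58 (0.02 to 1.16), and without the 5 cells richest in Dll1 in each library it was -0.06. Notch2 there had -0.18 (-0.50 to 0.14), Notch1 -0.10 (-0.38 to 0.18), Notch3 0.30 (-0.19 to 0.80), Jag1 0.12 (-0.22 to 0.45), Jag2 0.06 (-1.15 to 1.26) and Hes1 0.33 (-0.17 to 0.82).

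**Figure D4:**
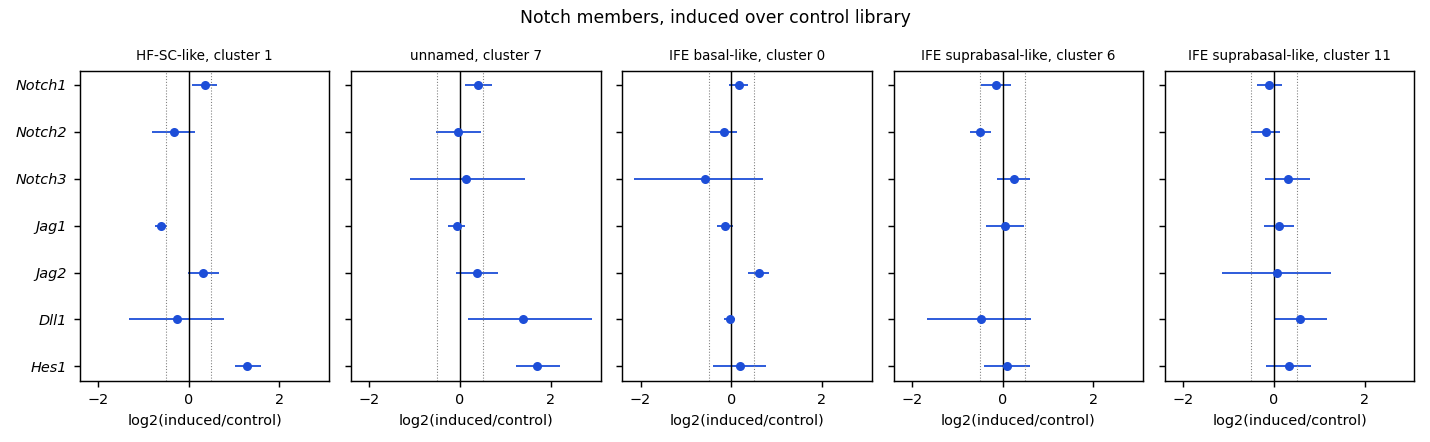
Log2 ratio of induced over control (x axis) of each member with at least 20 UMIs (y axis) in the 5 populations (panels); bars are exact 95% counting intervals and dotted lines mark log2 ratios of 0.5 in either direction. Hes1 lies at 1.29 and 1.70 in HF-SC-like cells and cluster 7 and at 0.10 to 0.33 in the others, and Jag1 at -0.61 in HF-SC-like cells.

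Across all 23 clusters, ratios were read where a gene had at least 20 UMIs in all and more than 3 in each library. Hes1 had an interval above 0 in 6 of 17 such clusters and below 0 in 1. Besides HF-SC-like cells and cluster 7, the fibroblast-like cluster stood out, with 73 control and 216 induced UMIs and a log2 ratio of 1.23 (0.85 to 1.64). There too, 5 cells held 42.5% of the control and 5 cells 36.6% of the induced UMIs, which the interval does not cover. Krt14, a keratinocyte marker, was at 840 and 453 CPM in the fibroblast-like cluster, and its part in the result was not tested. Of the 15 stress genes, 0 were past the fold in either direction in this cluster, against 16.4% and 8.69% of all genes, and Egr1 had 0.47, Fos -0.25 and Socs3 0.22. The inner bulge-like cluster went the other way, with 88 and 139 UMIs from 169 and 380 cells and a log2 ratio of -0.55 (-0.94 to -0.14). There 5 cells held 52.3% of the control UMIs and 5 cells 49.6% of the induced UMIs, an unevenness that the interval does not cover. In this cluster 7 of 15 stress genes were higher past the fold, against 14.1% of all genes, with Fos at 1.44 and Socs3 at 1.37. The part of stress genes in either Hes1 value was not tested.

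Jag1 had an interval below 0 in 11 of 20 clusters and above 0 in 1. Cluster 10, led by Gjb2 and Tnfsf18, had 576 and 182 UMIs and a log2 ratio of -1.03 (-1.28 to -0.79), and dermal papilla-like cells 50 and 45 UMIs and -1.05 (-1.67 to -0.44). In the dermal papilla-like cells Krt14 was also lower in induced, at 1023 and 417 CPM, and its part in the Jag1 difference was not tested. Cluster 2, led by Vsnl1, had -0.63 (-0.91 to -0.36) and the cycling-like cluster -0.56 (-0.85 to -0.28). Fibroblast-like cells were the exception, from 17 to 46 UMIs with a log2 ratio of 1.08 (0.28 to 2.01). Over all kept cells together Jag1 had 5805 and 4048 UMIs and a log2 ratio of -0.36 (-0.42 to -0.31), a value that also moves with the number of cells of each type.

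The receptors and the other ligands were read in the same way. Notch1 was higher in induced in 14 of 20 clusters, with the interval above 0 in 7 and below 0 in none, at a median log2 ratio of 0.33. Notch2 was lower in 17 of 19 clusters, with the interval below 0 in 3 and above 0 in none, at a median of -0.25. It reached -0.84 (-1.41 to -0.32) in the cycling-like cluster. Notch3 had an interval above 0 in 1 of 10 clusters, cluster 4, with 11 and 19 UMIs and a log2 ratio of 1.53 (0.41 to 2.77), and below 0 in none. Jag2 was higher in 11 of 11 clusters, with the interval above 0 in 4, at a median of 0.31. In HF-SC-like cells its ratio ran from -0.37 to 0.37 across alternatives. Clusters with few Jag2 UMIs are not counted, and they went both ways. Dermal papilla-like cells had 7 control and 0 induced UMIs, and sebaceous gland-like cluster 20 had 0 and 6. Dll1 had intervals above 0 in 4 and below 0 in 4 of 15 clusters. Clusters are counted side by side here and come from the same 2 mice, so they are not replicates of one another. No share over all genes is given beside these counts of clusters, nor beside those of Hes1 and Jag1 above.

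**Figure D5:**
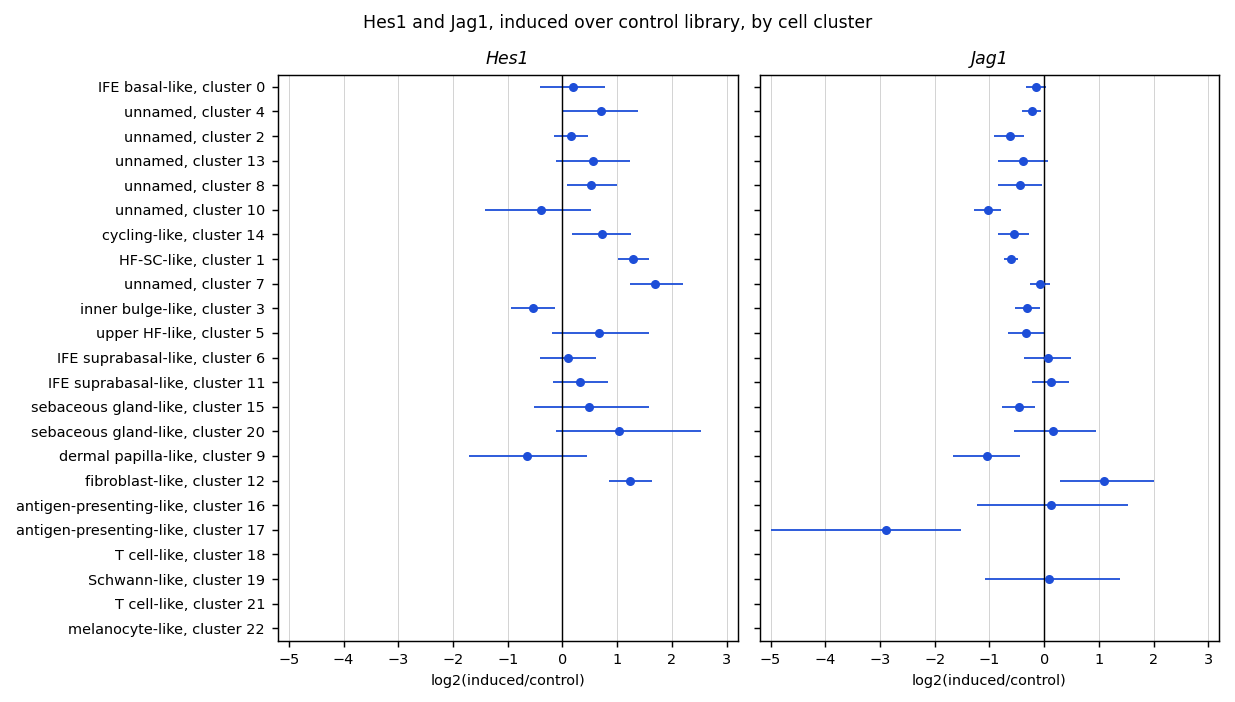
Log2 ratio of induced over control (x axis) of Hes1 and Jag1 in each cluster (y axis) with at least 20 UMIs in all and more than 3 in each library; bars are exact 95% counting intervals. Hes1 is highest in cluster 7 (1.70), HF-SC-like (1.29) and fibroblast-like cells (1.23), and Jag1 lies below 0 in 14 of 20 clusters.

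The other 51 genes of the pathway give the setting of these members. In HF-SC-like cells 36 were tested, and 8 were higher and 2 lower past the fold, with a median log2 ratio of 0.10, against 16.8% higher, 8.67% lower and a median of 0.09 over all genes. The genes named in each population are those with at least 50 UMIs. Among those with at least 50 UMIs the highest were Mib2 (0.95, from 27 to 53 UMIs), Neurl1b (0.74) and Poglut1 (0.73). Mib2 and Neurl1b encode ubiquitin ligases of ligand uptake, and Poglut1 an enzyme that adds glucose to the receptor. Among the lowest were Maml3 (-0.90), with 138 and 74 UMIs, and Aph1b (-0.66). Maml3 is a Mastermind co-activator, and Aph1b a subunit of gamma-secretase. In this cluster the split of all genes past the fold was 65.9% higher, and 52.3% higher when scaled by the median of ratios.

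In cluster 7, 34 were tested, 8 higher and 1 lower past the fold, with a median of 0.11, against 18.1%, 11.8% and 0.03 over all genes. Of those with at least 50 UMIs the highest were Poglut1 (1.35, from 15 to 45 UMIs), the co-repressor Cir1 (0.75) and the Deltex protein Dtx3 (0.61). The lowest were Maml1 (-0.69), the ligase Mib1 (-0.42) and Dtx2 (-0.40). In IFE basal-like cells 36 were tested, 7 higher and 1 lower, with a median of 0.16, against 10.5%, 6.52% and 0.03. Of those with at least 50 UMIs the highest were Dtx3l (0.83), Neurl1b (0.80) and the non-canonical ligand Dlk2 (0.73, from 103 to 110 UMIs), and the lowest Maml2 (-0.61), Cir1 (-0.41) and the protease Adam17 (-0.24).

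In suprabasal-like cluster 6, 31 were tested, 7 higher and 0 lower, with a median of 0.18, against 11.2%, 7.02% and 0.03. Of those with at least 50 UMIs the highest were Fbxw7 (0.64), which marks the intracellular domain for degradation, Neurl1b (0.58) and the co-repressor Spen (0.58), and the lowest were Ncstn (-0.26), Dtx2 (-0.20) and Numb (-0.12). In cluster 11, 30 were tested, 5 higher and 2 lower, with a median of -0.12, against 12.9%, 9.28% and 0.01. Of those with at least 50 UMIs, among the highest were Maml1 (0.33) and Spen (0.31), and the lowest were Aph1c (-0.64), Numb (-0.35) and Dtx2 (-0.30). The DNA-binding partner Rbpj had 2657 control and 2573 induced UMIs over all kept cells, with a log2 ratio of 0.11 (0.03 to 0.19). That value also moves with the number of cells of each type.

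The genes most like each member over the 46 points of 23 clusters by 2 libraries are given by Pearson's r of log2 levels, as a description, since points of a library share depth and scaling. Notch1 was most like Eef1d (0.69), Klf6 (0.61) and Abhd11 (0.60), Notch2 most like Tom1 (0.68), Stx11 (0.67) and Arhgef10l (0.62), and Notch3 most like Slc12a2 (0.77), Shroom2 (0.76) and Pcdh1 (0.75). Jag1 was most like Golim4 (0.73), Xrcc5 (0.69) and Nfib (0.68). Jag2 was most like Itga3 (0.78), Lgr6 (0.78) and Rbbp8 (0.77). Dll1 was most like Col23a1 (0.83), Flvcr1 (0.73) and Ptk7 (0.73). Hes1 was most like Hspa1a (0.75), Egr1 (0.74) and Ltbp3 (0.73), so that 2 of its 3 nearest genes were on the stress list. Hey1 and Heyl had fewer than 500 UMIs and were left out.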

How the data were processed

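The authors counted UMIs per gene and cell barcode with Cell Ranger 3.0.1 (version from the matrix header; build mm10 per the submitters' processing notes) and deposited raw counts, whole numbers without normalization. Depth was 55465594 UMIs in the control library and 49733560 in the induced library, from 1 mouse each. Nothing says how doublets were treated by the authors, and they were not removed here. Scrublet (scanpy 1.11.5) called 4 and 5 barcodes automatically, which was not used; an alternative dropped the 165 and 145 highest scores.

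Cells with over 200 and under 5000 genes and under 10% mitochondrial UMIs were kept, as in the study's filter, and clustered with Seurat 5.3.0 in R 4.3.3 (2000 variable genes without pathway and stress genes, 30 dimensions, resolution 0.8). A cluster was named when at least 3 markers, and not fewer than 50% of those of a class with 20 UMIs, were raised 2-fold and found in 10% of cells, and no other class had more of the top 10 genes; this rule was set after clusters were seen. Levels are counts per 1000000 UMIs (CPM) of the population and library with exact Poisson intervals. Log2 ratios use a pseudocount of 0.5 UMIs and exact conditional intervals. Shares use Clopper-Pearson intervals after each cell was thinned to 5000 UMIs (304 control and 328 induced cells were too shallow). No p-value was computed. The ratio and interval were tested on simulated Poisson counts, the model behind the interval, so uneven spread of UMIs over cells was not covered.

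The members, lists and rules were chosen with earlier results of these data known. Named genes are the 9 members, the 3 highest and 3 lowest other pathway genes with at least 50 UMIs per population, the 3 genes most correlated with each member (log2 of the level plus 10), and stress genes beyond a log2 ratio of 1; Hspa1a in HF-SC-like cells and the stress values in fibroblast-like and inner bulge-like cells were added after values were seen. Alternatives (2 of them, the scaled marker classes and the stress level, chosen after seeing the data) covered cell classes, filters, doublets, scaling, pseudocount, minimum counts and the top cells of a gene. A few genes that this rule selects are not reported here.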

Additional observations from a re-analysis of the deposited data

Results flagged for a closer look

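In 3 genes the log2 ratio had intervals on opposite sides of 0 in different clusters; the differences between clusters were not tested, and clusters come from the same 2 mice. Hes1 was at 1.70 in cluster 7 and at -0.55 in inner bulge-like cells. In each library 5 cells held much of these Hes1 UMIs, 41.7% (control) and 39.2% (induced) in cluster 7. In inner bulge-like cells they held 52.3% and 49.6%. Jag1 was at 1.08 in fibroblast-like cells and at -2.88 in antigen-presenting-like cluster 17, which had 30 control and 4 induced UMIs, 90.0% of the former in 5 cells. Krt14, a keratinocyte marker, was at 2393 control and 805 induced CPM in cluster 17, and its part in the Jag1 value was not tested. Dll1 was at 1.38 in cluster 7, from 7 and 22 UMIs, and at -1.03 in cluster 8, from 69 and 44 UMIs. In cluster 7, 5 cells held 85.7% of the control and 45.5% of the induced Dll1 UMIs. For cluster 8 these shares were 43.5% and 43.2%.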

How the results depend on the processing

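No paired analysis was possible because each group is 1 library and the result comes from no test; for the same reason no library could be left out. Of 434 member log2 ratios recomputed under alternatives, 411 moved by less than their counting interval. The sign differed from the reported one in 31 values, of 17 of the 33 ratios; 5 of these 31 belong to ratios past the fold and are given below. Jag1 in HF-SC-like cells stayed below 0 under all 15 alternatives (-0.81 to -0.37). Assigning cells by marker UMIs gave -0.029 for Dll1 in cluster 11, and for HF-SC-like cells -0.12 (Hes1) and -0.37 (Jag1). It was not read for IFE basal-like cells, cluster 6 or cluster 7. The IFE basal class took 2443 control and 1743 induced cells, of which 22.6% were of the IFE basal-like cluster. The hair germ class took 7 and 8 cells. Scaled markers gave 0.67 for Hes1 and -0.81 for Jag1 in HF-SC-like cells, for cluster 7 they gave 1.22 and -0.32, and they gave 0.024 for Notch3 in IFE basal-like cells. Under 5% mitochondrial UMIs, Hes1 was 2.52 in cluster 7 and 0.95 in HF-SC-like cells, and Jag1 in cluster 7 was 0.30. At a resolution of 1.2 Hes1 in HF-SC-like cells was 1.71. Cells between the 25th and 75th percentile of stress UMIs gave a Hes1 ratio of -0.38 in cluster 7 and of 0.90 in HF-SC-like cells. With the 5 top cells left out, Dll1 in cluster 11 was -0.057. Counts of members past the fold rest on few genes: across alternatives they ran from 0 to 2 in either direction for HF-SC-like cells, 0 to 3 higher in cluster 7, 1 to 2 higher and 0 to 1 lower in IFE basal-like cells, 0 to 2 in cluster 6 (higher and lower), and 0 to 2 higher and 0 to 1 lower in cluster 11. Apart from the alternatives whose construction shows it (fewer cells or genes), the cause was not tested. Hey1, Heyl and the ratios of genes under 20 UMIs are limited by depth.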

Other observations

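The endothelial-like cluster held 21 cells, 7 control and 14 induced, and was left out above for its size. Its Notch1 level was 433 CPM (302 to 602) in control and 277 (187 to 396) in induced. The Delta ligand Dll4 was at 124 and 92.4 CPM there, from 10 UMIs in each library, out of 10 and 11 Dll4 UMIs in all kept cells. Hey1 had 0 control and 7 induced UMIs there.

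Hes6, a Hes family member that is not among the 9, had 74 control and 171 induced UMIs over all kept cells, with a log2 ratio of 1.36 (0.96 to 1.78). Neurl3 had 374 and 649 UMIs, with a log2 ratio of 0.95 (0.77 to 1.14). UMIs of Hes6 were in 2.95% of kept cells and those of Neurl3 in 3.50%. Both ratios also move with the number of cells of each type, which differed between the libraries. Both were named after their values were seen.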
